A study of Mus musculus with 2 samples.

Results

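Rab genes encode the Ras-related small GTPases that give membranes inside the cell their identity. They were taken here as every protein-coding gene of the GENCODE M21 annotation whose symbol is Rab followed by a number and, where there is one, a letter or further number. The rule found 59 genes among 21474 protein-coding genes and 43346 annotated genes in the deposited quantifications. It uses names and no measured value, and it leaves out relatives with other names. Polyadenylated RNA was measured in frontal cortex of C57BL/6J mice, which the labels give as adult, 8 weeks old, littermates of mixed sex. The only group holds 2 biological replicates, with no genotype, treatment or control group named, so no contrast between conditions exists. Both replicates carry the same donor identifier, and how many animals each library pools is not given, so the spread between them may be partly technical. Sex-linked transcripts differed sharply between the libraries, as given below, so the spread is also confounded with sex.

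A Rab protein switches between a GTP-bound form that sits on a membrane and recruits effectors and a GDP-bound form that a GDI protein keeps soluble. Guanine nucleotide exchange factors (GEFs) load GTP, GTPase-activating proteins (GAPs) speed its hydrolysis, and a geranylgeranyl transferase attaches lipid to cysteines at the end of the protein. In neurons Rab proteins direct transport through the Golgi, the recycling of receptors and the release of synaptic vesicles, the last of these being the textbook role of the Rab3 subfamily. Many Rabs exist as near copies made by gene duplication, and these paralogs are compared below by level, transcript and sequence.

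The coding sequences around the G3 motif of the Rab3 paralogs are shown because this motif is common to most Rab proteins and because the levels of the 4 genes differed by up to 87.3-fold (Rab3a over Rab3d). The G3 motif binds nucleotide and magnesium, and the capitals mark its 18 coding bases. Each window holds 60 coding bases of the leading protein-coding transcript, read from the reference transcripts, 5′ to 3′ on the coding strand.
Rab3a: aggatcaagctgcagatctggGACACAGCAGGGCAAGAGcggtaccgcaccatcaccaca
Rab3b: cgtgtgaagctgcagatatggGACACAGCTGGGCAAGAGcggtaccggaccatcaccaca
Rab3c: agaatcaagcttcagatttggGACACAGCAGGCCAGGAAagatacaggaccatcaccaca
Rab3d: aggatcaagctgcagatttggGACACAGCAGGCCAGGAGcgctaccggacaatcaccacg
Between any pair of these windows 7 to 13 of the 60 bases differed. Rab3a, Rab3c and Rab3d encode the same residues over the window, and Rab3b differs from each of them at 1 residue. The same motif was encoded by the leading coding transcript of 49 of the 59 genes. The 10 without these exact residues were Rab7b, Rab20, Rab24, Rab25, Rab28, Rab29, Rab32, Rab38, Rab40b and Rab40c. A cysteine stood within the last 4 codons in 58 of 59 genes. The exception was Rab18, read from an M21 transcript whose length differs from that in the quantifications (1184 against 2257 bases).

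Rab6a is shown because a pair of its transcripts use different copies of exon 4, and transcript quantification can separate them. The copies have 106 bases each and lie in tandem on the plus strand of mm10, at chr7:100629666-100629771 (Rab6a-202) and chr7:100629838-100629943 (Rab6a-201). Capitals mark the 30 bases at which they differ.
Rab6a-201: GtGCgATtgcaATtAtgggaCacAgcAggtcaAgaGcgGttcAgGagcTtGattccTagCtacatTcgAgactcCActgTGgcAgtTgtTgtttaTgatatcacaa
Rab6a-202: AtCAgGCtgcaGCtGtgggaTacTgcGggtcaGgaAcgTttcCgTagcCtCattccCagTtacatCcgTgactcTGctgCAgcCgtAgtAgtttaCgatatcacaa
Both transcripts encode 208 codons, and the proteins differ at 3 residues. Levels are given as TPM, a share of all transcripts corrected for length, with replicate 1 before replicate 2. Rab6a-201 reached 122.72 and 96.16 TPM, or 92.0% and 92.2% of the whole gene. Rab6a-202 took 4.84% and 5.70%. The log2 ratio of the first to the second was 4.13 ± 0.16 (SD, n = 2), a 17.5-fold difference.

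The libraries held 106084891 (replicate 1) and 90476207 (replicate 2) expected counts, which estimate sequenced fragments, and 505739 and 431625 of these fell on Rab genes. All 6 excitatory neuron, 6 GABAergic neuron, 6 astrocyte and 6 oligodendrocyte markers were at 1 TPM or more, and none of 3 choroid plexus markers reached a mean of 1 TPM. The 3 olfactory bulb markers (Doc2g, Th and Cdhr1) summed to 282.65 and 281.71 TPM and the 4 striatal markers to 160.29 and 199.64 TPM. The part of such cells in the Rab levels was not tested. The labels give pooled sexes for both libraries, yet Xist was found at 0.25 and 110.35 TPM and the Y-linked gene Eif2s3y at 53.78 and 0.05 TPM. The Y-linked markers Ddx3y, Kdm5d and Uty were at 13.8, 11.07 and 6.44 TPM in replicate 1 and at most 0.01 TPM in replicate 2. By these genes, replicate 1 was male or nearly so and replicate 2 female or nearly so. Differences between the replicates therefore cannot be told apart from differences of sex. In whole tissue, more cells of a type and more RNA per cell cannot be told apart.

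The Rab family was broadly present in frontal cortex. A mean of 1 TPM or more was reached by 51 of the 59 genes, against 61.7% of protein-coding genes. A mean of 10 TPM or more was reached by 40, against 36.9%, and a mean of 100 TPM or more by 9, against 4.34%. The sum over all Rab genes was 3093.27 and 2924.54 TPM. That was 0.363% ± 0.0102 (SD, n = 2) of protein-coding TPM, or 0.610% ± 0.00362 when the mitochondrial genes were left out of the total. A few genes carried much of it, since the 5 most abundant made up 41.2% ± 1.13 of Rab TPM and Rab3a alone 18.2% ± 0.788.

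The 5 genes with the highest means act in secretion, recycling, the late endosome and the Golgi. Rab3a, which acts on synaptic vesicles before release, led with 545.42 and 548.28 TPM. Rab11b of the recycling endosome followed with 238.55 and 229.53 TPM, and Rab7 of the late endosome with 198.82 and 187.26 TPM. Rab6b and Rab2a, both of the Golgi, came next with 139.37 and 142.50 TPM and with 129.15 and 122.05 TPM. Rab3a, Rab11b, Rab7 and Rab6b each stood apart from the next gene in both libraries by the deposited TPM intervals, whereas the genes from Rab2a to Rab11a did not keep apart from the next in the same order in both libraries. Rab6a, for example, was above Rab2a in replicate 1 and below it in replicate 2. Over the 50 neighbouring pairs at 1 TPM or more, only 15 were apart in the same order in both libraries, so the exact rank of most genes in the middle of the order was not resolved.

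**Figure D1:**
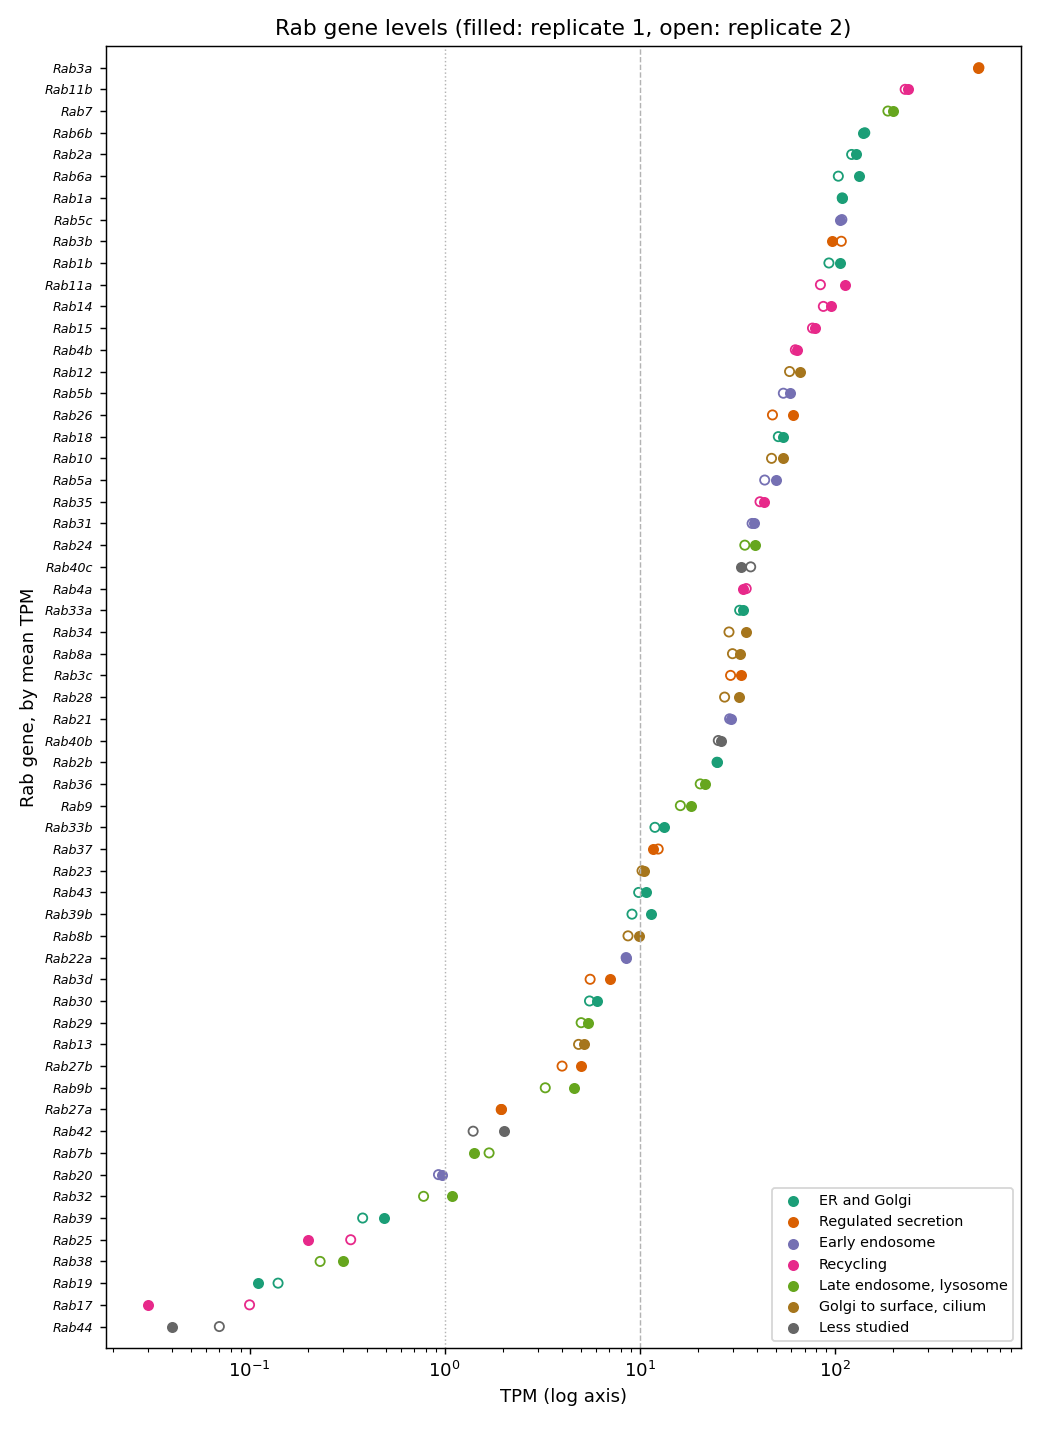
TPM of each of the 59 Rab genes (horizontal, log axis) in replicate 1 (filled circles) and replicate 2 (open circles), with genes ordered from top to bottom by mean and coloured by role; the dotted and dashed lines mark 1 and 10 TPM. Rab3a stands apart at 545.42 and 548.28 TPM, most genes lie between 10 and 200 TPM, and the replicates differ little beside the range of the family.

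The genes of regulated secretion held 25.3% ± 0.888 (SD, n = 2) of Rab TPM and 19.4% of Rab counts, and 5 of the 8 reached 10 TPM. Their sum of 762.27 and 757.42 TPM did not keep 1 order with that of the genes of the endoplasmic reticulum and Golgi, 771.83 and 717.16 TPM. Most of the secretory sum came from the Rab3 subfamily, which summed to 682.59 and 691.10 TPM. Rab3a (ENSMUSG00000031840.8, mm10 chromosome 8, 70754679 to 70758677, plus strand) took 79.6% ± 0.403 of that sum. Rab3b, whose RNA was at 97.21 and 108.02 TPM, came second, at a level 5.34-fold below Rab3a. Rab3c followed with 32.91 and 29.23 TPM, and Rab3d, best known from secretory granules of exocrine cells, was lowest with 7.05 and 5.57 TPM. These 4 levels did not overlap in either library.

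The order of Rab3b and Rab3c depended on whether length was taken into account. Rab3c has a single transcript of 8500 bases in the files and drew 22579 and 18159 counts, against 9963 and 9974 for Rab3b with a mean length of 1447 bases. Per length Rab3b was 3.30-fold higher, and by counts alone Rab3c was higher by 1.02 ± 0.22 on the log2 scale. Rab3a was highest on both scales, with 61.4% ± 0.80 of the counts of the subfamily.

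The other secretory Rabs were lower. Rab26, linked to vesicles bound for autophagy and to granules, was at 61.01 and 47.93 TPM, and its relative Rab37 at 11.74 and 12.44 TPM. Rab27a and Rab27b, which dock secretory granules and exosome-bearing compartments, were at 1.95 TPM in both libraries and at 4.98 and 4.00 TPM. Rab27b therefore exceeded Rab27a by 1.19 ± 0.22 on the log2 scale, and the intervals of the pair were apart in both libraries.

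Of 14 genes of the endoplasmic reticulum and Golgi, 11 reached 10 TPM, and together they held 24.7% ± 0.304 of Rab TPM and 32.7% of Rab counts. Rab1a and Rab1b, which act between the endoplasmic reticulum and the Golgi, were at similar levels. Rab1a was at 109.05 and 109.17 TPM and Rab1b at 105.86 and 93.32 TPM, a log2 ratio of 0.13 ± 0.13. Their deposited TPM intervals overlapped in replicate 1 (106.1 to 110.6 and 103.4 to 106.8) and were apart in replicate 2. Rab6a and Rab6b were close per length, with 133.40 and 104.28 TPM for Rab6a. Their log2 ratio was -0.06 in replicate 1 and -0.45 in replicate 2, a mean of -0.26 ± 0.27 that stayed within the spread. The deposited TPM intervals of Rab6a and Rab6b were nonetheless apart in both libraries. By counts, with the longer Rab6b, the log2 ratio was -0.94 ± 0.26, which exceeded its SD.

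Other Golgi paralogs were unequal. Rab2a exceeded Rab2b, at 24.85 and 24.91 TPM, by 5.05-fold. Rab33a, at 33.97 and 32.54 TPM, exceeded Rab33b, at 13.32 and 11.97 TPM, by 2.63-fold, but their counts differed by only 0.05 ± 0.05 on the log2 scale. Rab39b, the X-linked gene mutated in an intellectual disability with early parkinsonism, was at 11.40 and 9.13 TPM. Its paralog Rab39 was at 0.49 and 0.38 TPM, so the difference was 23.6-fold. Rab43 was at 10.79 and 9.88 TPM and Rab19 at 0.11 and 0.14 TPM, from only 13 and 14 counts. Rab18, of lipid droplets and the endoplasmic reticulum, was at 54.01 and 51.36 TPM, and Rab30 of the Golgi at 6.06 and 5.53 TPM.

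Among 7 early endosome genes, 5 reached 10 TPM. The Rab5 paralogs drive fusion of early endosomes, and all 3 were abundant, with a sum of 215.36 and 206.98 TPM. Rab5c was highest with 106.30 and 108.75 TPM, ahead of Rab5b with 58.82 and 54.50 TPM and Rab5a with 50.24 and 43.73 TPM. Rab5c exceeded Rab5b 1.90-fold and Rab5a 2.29-fold. The gap between Rab5b and Rab5a was 1.21-fold, a log2 difference of 0.27 ± 0.06 that was still beyond the spread. Rab31 was at 38.51 and 37.69 TPM and its paralog Rab22a at 8.51 and 8.52 TPM, a 4.47-fold difference. Rab21, an early endosome Rab that binds integrins, was at 29.54 and 28.91 TPM, and Rab20 was under 1 TPM.

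Recycling genes held 21.4% ± 0.328 of Rab TPM, and 7 of 9 reached 10 TPM. Rab11a, at 112.47 and 84.41 TPM, was 2.40-fold below Rab11b. Of the Rab11a level, 47.63 and 23.22 TPM lay on a coding transcript of 462 bases with 1003 and 428 counts. The log2 ratio of Rab11a over Rab11b was -1.26 by TPM, -1.81 by counts and -2.20 by leading transcripts. Their relative Rab25, an epithelial gene, was at 0.20 and 0.33 TPM from 14 and 20 counts. Rab4b was at 64.15 and 62.79 TPM and Rab4a at 33.91 and 35.15 TPM, a 1.84-fold difference in the rapid recycling pair. Rab14 (95.90 and 87.38 TPM) and Rab15 (79.20 and 76.88 TPM) were close to Rab11a, and Rab35 was at 43.56 and 41.38 TPM. Rab17, another epithelial gene, was at 0.03 and 0.10 TPM.

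Late endosome and lysosome genes split widely, with 4 of 9 at 10 TPM or more. Rab7 exceeded its namesake Rab7b, at 1.42 and 1.69 TPM, by 125-fold. Rab9, which returns cargo from late endosomes to the Golgi, was at 18.34 and 16.16 TPM, 4.43-fold above Rab9b at 4.60 and 3.28 TPM. Rab24, linked to autophagy, was at 39.05 and 34.58 TPM and Rab36 at 21.65 and 20.43 TPM. Rab29, which binds the kinase Lrrk2, was at 5.46 and 5.01 TPM. Rab32 and Rab38, known from pigment granules, had means under 1 TPM.

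Of 8 genes that act from the Golgi to the cell surface or at the cilium, 6 reached 10 TPM. Rab12 (65.95 and 58.65 TPM) and Rab10 (54.55 and 47.41 TPM) were highest. Rab34 was at 35.25 and 28.69 TPM, which was 1.51-fold above its paralog Rab36. By counts the order of that pair turned, with Rab34 lower by 0.65 on the log2 scale. Rab8a was at 32.80 and 29.90 TPM and Rab8b at 9.94 and 8.71 TPM. Rab28 was at 32.10 and 27.24 TPM, and Rab23, a negative regulator of hedgehog signalling, at 10.54 and 10.28 TPM. In the remaining group, Rab40c was at 32.97 and 37.06 TPM and Rab40b at 26.22 and 25.29 TPM. Both carry a SOCS box that joins ubiquitin ligases.

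The 8 genes with means under 1 TPM were Rab20, Rab32, Rab39, Rab25, Rab38, Rab19, Rab17 and Rab44. Their counts ranged from 4 for Rab17 in replicate 1 to 171 for Rab32 in the same library. All 8 therefore had reads, and their ratios between replicates were not resolved at this depth, apart from Rab32 at the edge (log2 -0.35, counting interval -0.72 to -0.002).

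Across all 27 paralog pairs, 25 differed beyond the spread, meaning that the sign was the same in both libraries, the mean log2 ratio exceeded its SD and the deposited TPM intervals were apart in both. The exceptions were Rab1a with Rab1b, whose intervals overlapped in replicate 1, and Rab6a with Rab6b, whose mean did not exceed its SD. The same share over other pairs of protein-coding genes was not taken, so the count is not read as a trait of Rab paralogs. With 2 libraries the smallest two-sided exact sign-flip p is 0.5, so an exact test cannot pass a threshold for any pair and no p-value is given. Of the called pairs, the smallest difference was between Rab5a and Rab5b and the largest between Rab11a and Rab25 (log2 8.57 ± 0.80).

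Some ratios depended on which transcripts were counted. Rab8a exceeded Rab8b by 1.75 ± 0.04 on the log2 scale from gene TPM, but by only 0.36 ± 0.18 when transcripts not annotated as protein-coding were left out. For Rab40b and Rab40c the log2 ratio was -0.44 ± 0.16 from gene TPM and 0.13 ± 0.13 from protein-coding transcripts. For Rab26 over Rab37 it was 2.16 ± 0.31 and 1.5 ± 0.34 on the same scales, and for Rab4a over Rab4b -0.88 ± 0.06 and -0.53 ± 0.02.

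**Figure D2:**
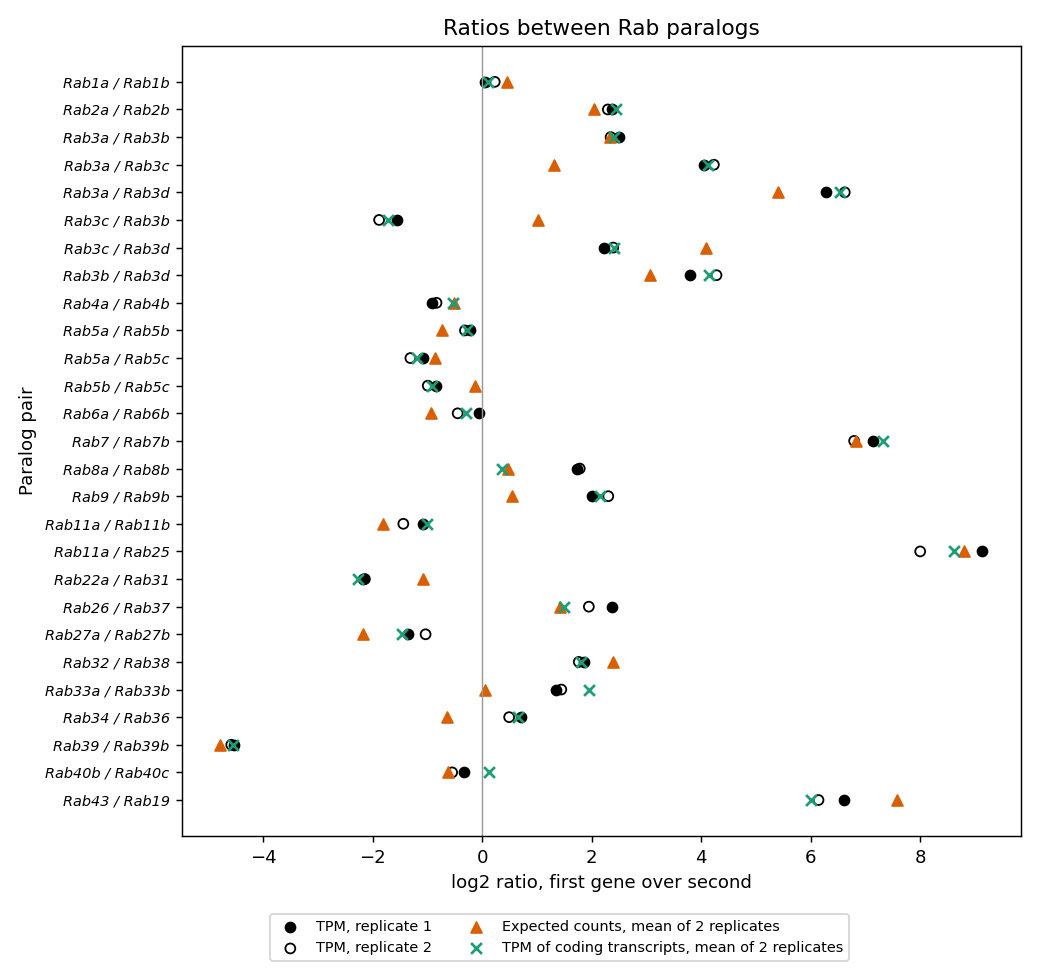
log2 ratio of the first gene over the second (horizontal) for 27 Rab paralog pairs, from gene TPM in replicate 1 (filled circles) and replicate 2 (open circles), from expected counts (triangles) and from TPM of protein-coding transcripts alone (crosses), the last 2 as means over both replicates. Rab1a / Rab1b and Rab6a / Rab6b lie near 0 by TPM, although the counts of the second pair give -0.94, and triangles lie across 0 from the circles for Rab3c / Rab3b and Rab34 / Rab36.

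No paralog pair shared a stretch as long as a read. Between the leading coding transcripts of a pair, identity ran from 49.4% for Rab7 and Rab7b, where the leading Rab7b transcript is short, to 78.4% for Rab6a and Rab6b. Over all reference transcripts of both genes, the longest run of identical bases in any pair was 38, between Rab1a and Rab1b. Posterior SDs of the counts, which measure how far reads could be shared with other entries, were 0 in both libraries for 45 of the 51 genes at 1 TPM or more, against 88.9% of protein-coding genes. The 6 others were Rab11b, Rab4b, Rab5b, Rab8b, Rab4a and Rab6b. The largest posterior SDs were those of Rab11b, 51.31 and 50.32 on 28007 and 24480 counts.

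Longer shared stretches lay in other loci. Of all words of 1 read length in the leading transcript of Rab11b, 27.8% also occurred in the pseudogene Rab11b-ps2, and 10.9% of those of Rab7 in Rab7-ps1, which has no entry in the quantifications. Rab11b-ps2 was listed at 34.07 and 23.14 TPM, from 1267 and 765 counts, beside 28007 and 24480 counts for Rab11b. The level of Rab11b is uncertain by what was assigned to this pseudogene. For Rab4b 76.5% occurred in Gm21983, which was at 0.09 and 0.15 TPM. For Rab43 90.3% occurred in Gm45140, which has no entry under that identifier in the quantifications, so reads of the shared stretch could not be assigned to it. Antisense loci also lay across some genes. Rab10os, antisense to Rab10, was at 48.23 and 59.70 TPM, close to Rab10 itself, and Rab26os was at 24.84 and 28.95 TPM. The libraries keep strand, but whether the quantification used it is not given in the sources used here. Reads of Rab10 and Rab26 and of their antisense partners may therefore not be fully separated. By gene bounds, 21 Rab genes overlapped a gene on the opposite strand, and the same limit may hold for others of them. Rab24, for example, lay across from Prelid1, at 105.22 and 111.97 TPM, and Rab6a from Mrpl48, at 66.01 and 55.67 TPM. On the same strand, 17 Rab genes overlapped another gene. Rab26 overlaps Traf7, which was at 109.69 and 95.57 TPM, and Rab4a overlaps Gm20388, which was at 11.51 and 7.95 TPM.

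Transcript use varied between Rab genes. Of the 51 genes at 1 TPM or more, 16 have a single transcript in the files and 35 have more. Among those 35, a leading transcript took 90% or more of the TPM in both libraries in 7, against 19.8% of protein-coding genes with several transcripts. In 14 genes, 10% or more of the TPM lay on transcripts not annotated as protein-coding in both libraries. The share of all protein-coding genes with this property was not taken, so the count is not read as a trait of Rab genes.

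Rab8a was the only gene of the 51 whose leading transcript by mean TPM over both libraries was not protein-coding. Its retained-intron transcript Rab8a-202, of 542 bases, took 64.4% and 59.2% of the TPM of the gene, at 21.13 and 17.71 TPM. The coding transcript Rab8a-201, of 4550 bases, was at 11.66 and 12.19 TPM. In counts the order was the reverse, with 585 and 433 for the short transcript and 4190 and 3963 for the coding one. The high TPM of Rab8a-202 thus rests on few reads over a short length.

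Other genes had large shares on transcripts not annotated as protein-coding. Protein-coding transcripts took 56.7% and 57.0% of the TPM of Rab23 and 57.8% and 56.0% of that of Rab26, with retained introns making up most of the rest for Rab26. For Rab11b, Rab11b-204, annotated for nonsense-mediated decay, took 25.4% and 21.7%. For Rab35 the decay transcript Rab35-202 took 26.7% and 31.1%. In Rab33b, Rab33b-203, of the class of processed transcripts without an annotated coding sequence, took 32.5% and 31.8%.

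In 2 of the 51 genes the transcript with the highest TPM differed between the libraries. The same share over all protein-coding genes was not taken. Rab40c-201, which is protein-coding, took 42.7% of Rab40c in replicate 1 and 25.6% in replicate 2, whereas the processed transcript Rab40c-205 took 24.1% and 41.9%. Rab11a-206, a coding transcript of 462 bases, took 42.4% and 27.5% of Rab11a, and Rab11a-208, of 2336 bases, took 33.7% and 40.8%. With 1 library on each side these shifts have no replicate check. Between Rab3a transcripts the split was steadier, with 69.5% and 74.0% on Rab3a-201 and 23.9% and 20.9% on Rab3a-204.

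**Figure D3:**
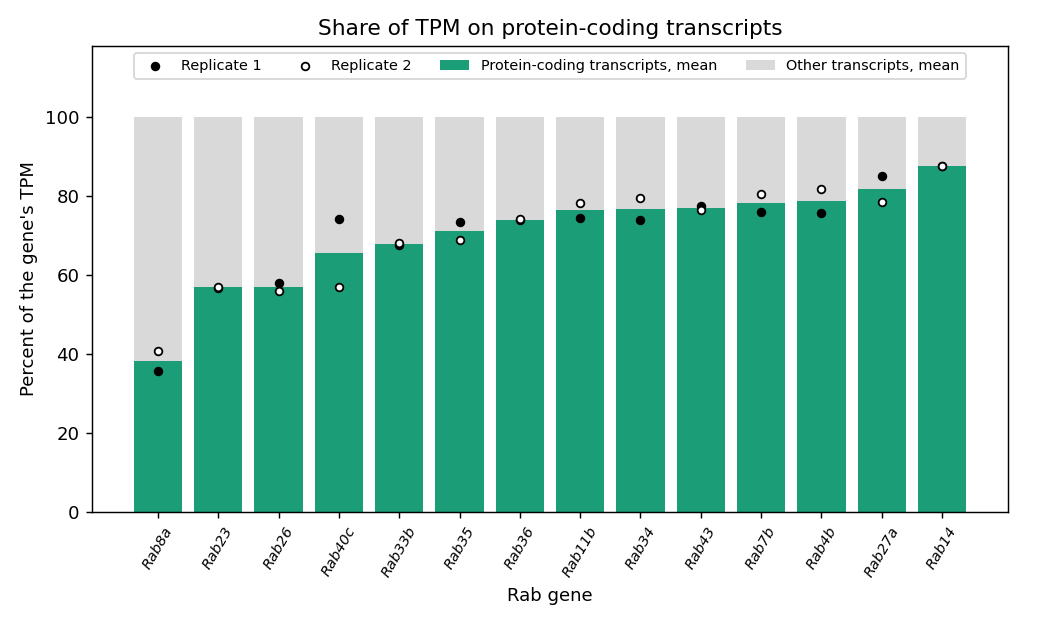
Percent of the TPM of a gene on transcripts annotated as protein-coding (green bars, mean of 2 replicates; grey, the rest) for the 14 Rab genes with 10% or more on other transcripts in both replicates, with replicate 1 as filled and replicate 2 as open circles. Rab8a is lowest with 35.5% and 40.8%, and Rab40c has the widest gap between replicates, 74.1% and 57.0%.

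Few Rab genes differed much between the replicates. The ratio of replicate 2 over replicate 1 was taken on counts scaled by library total and by TMM factors, which allow for composition. The median log2 ratio of the 51 Rab genes at 1 TPM or more was 0.05, against 0.0005 for protein-coding genes at that level. Of the 51 genes, 29 had ratios above 0 and 22 below. A log2 ratio of 0.25 or more was reached by 2 genes upward, against 7.91% of protein-coding genes, and by 2 downward, against 6.82%. As each side is 1 library, these differences have no replicate check. The 95% counting interval left out 0 in 34 of 51 genes, 22 of them above 0 and 12 below, against 56.2% of protein-coding genes. At this depth counting error was thus smaller than the difference for most protein-coding genes, Rab genes among them. The Rab genes also had a higher median level, 33.3 against 13.9 TPM, whose part in this was not tested.

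Rab3b and Rab7b were higher in replicate 2. Rab3b had 9963 and 9974 counts, the second in the smaller library, and a log2 ratio of 0.28 (counting interval 0.24 to 0.32). Scaled by library size, by the spike-in total or from TPM with a pseudocount of 1 it was under 0.25 (0.23, 0.24 and 0.15). Rab7b had 223 and 249 counts and a ratio of 0.44 (0.17 to 0.71). From TPM with a pseudocount of 1, which shrinks the ratio of a gene this low, it was 0.15. The other Rab3 genes did not pass, with ratios of 0.14 for Rab3a, -0.03 for Rab3c and -0.004 for Rab3d.

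Rab9b and Rab42 were lower in replicate 2. Rab9b, 1 of 4 X-linked Rab genes, had 1437 and 925 counts and a log2 ratio of -0.35 (-0.48 to -0.23). The other X-linked genes Rab33a, Rab9 and Rab39b were at 0.06, -0.05 and -0.19. Rab42 had 92 and 57 counts and a ratio of -0.40, and its counting interval of -0.91 to 0.08 included 0. Just inside the threshold lay Rab6a at -0.21 (32333 and 22967 counts) and Rab37 at 0.21.

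Marker genes of several cell types also differed between the libraries. All 7 microglial markers were lower in replicate 2 (median log2 ratio -0.35, summed level 258.09 and 180.89 TPM), and all 6 oligodendrocyte markers were higher (0.43, 1919.36 and 2334.03 TPM). The 7 endothelial and mural markers had a median of -0.24, and the 4 striatal markers were all higher with a median of 0.48. Of the neuronal markers, 4 of 6 excitatory (median 0.18) and 5 of 6 GABAergic (median 0.19) were higher. Medians were -0.23 for oligodendrocyte precursor, -0.36 for meningeal, 0.05 for astrocyte and 0.09 for olfactory bulb markers. The part of these differences, and of the difference in Xist and Y-linked genes, in the Rab ratios was not tested.

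**Figure D4:**
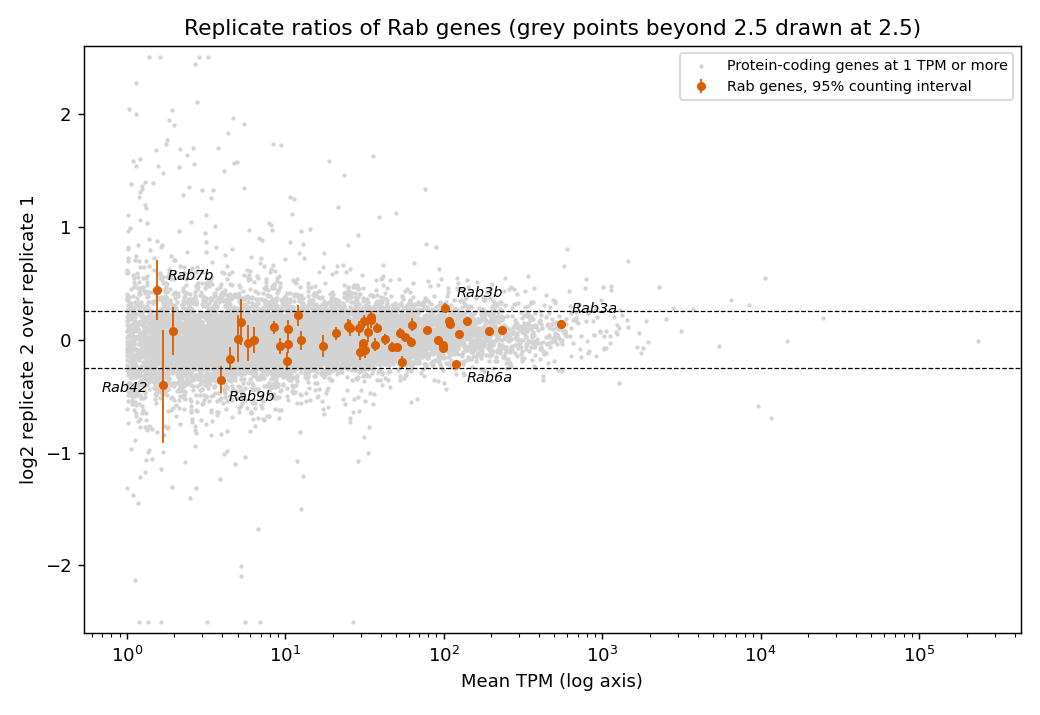
log2 ratio of replicate 2 over replicate 1 (vertical) against mean TPM (horizontal, log axis) for 51 Rab genes (orange, with 95% counting intervals) and all protein-coding genes at 1 TPM or more (grey); dashed lines mark 0.25 in either direction. Rab7b and Rab3b lie above the upper line, Rab9b and Rab42 below the lower one, and Rab3a lies at 0.14.

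Most genes that run the Rab cycle were also detected. Of 115 regulators and effectors, 73 were at 10 TPM or more, against 36.9% of protein-coding genes, and 105 at 1 TPM or more, against 61.7%, with a median of 15.1 TPM. Rabac1, a prenylated Rab acceptor, was at 172.90 and 188.92 TPM, and Gdi2 at 72.95 and 59.67 TPM.

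Among 31 GEFs, 19 reached 10 TPM. Dennd5a, with 115.57 and 108.50 TPM, and Sbf1, with 109.62 and 109.07 TPM, were highest and changed order between the libraries. They were followed by Madd, the exchange factor of Rab3 and Rab27, with 80.10 and 69.87 TPM. All 33 GAPs were at 1 TPM or more and 22 at 10 TPM or more, led by Tbc1d9b (66.35 and 66.12 TPM), Sgsm3 (48.99 and 40.72 TPM) and Evi5l (43.36 and 37.46 TPM). Rab3gap1, the catalytic subunit of the Rab3 GAP, was at 22.37 and 19.94 TPM.

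Of 40 effectors, 25 reached 10 TPM. Rph3a, a Rab3 effector on synaptic vesicles, was highest with 96.23 and 101.33 TPM, followed by the Rab11 effector Rab11fip4 with 68.93 and 63.12 TPM and by Rims1 with 60.33 and 65.89 TPM. Rims1 links Rab3 to the active zone and had a log2 ratio of 0.30 between replicates. Lrrk2, the Parkinson's disease kinase that phosphorylates Rab8, Rab10 and others, was at 8.87 and 5.98 TPM, Lrrk1 at 2.45 and 2.07 TPM, and Ppm1h, a phosphatase that reverses this phosphorylation, at 15.47 and 15.25 TPM. Between replicates, 4 of the 105 regulators at 1 TPM or more passed 0.25 upward and 7 downward, beside 7.91% and 6.82% of protein-coding genes.

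Promoter sequences from RefSeq (GRCm38.p6, 250 bases before to 50 after the start) matched 48 Rab genes. The ratio of observed to expected CpG was averaged over the promoters of a gene where there were several. A ratio of 0.6 or more was found in 35 of the 48 Rab genes, 72.9%. That compares with 49.2% of 16317 protein-coding genes with a promoter, the Rab genes included. Among genes at 10 TPM or more the shares were closer, 82.4% of 34 Rab genes and 76.8% of all protein-coding genes. Of 6 Rab genes under 1 TPM with a promoter, 2 had such a ratio, 33.3%, against 12.2%.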

How the data were processed

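Stranded paired-end reads of 101 bases from polyadenylated RNA above 200 bases, with spike-in RNAs, were quantified by the authors on mm10 with annotation M4, per the file headers and the deposited description. The program is not given in the sources used here. The deposited files hold expected counts, TPM, FPKM, posterior means and SDs, TPM interval bounds whose level is not stated, and the percent of a gene's TPM on each transcript. Expected counts were rounded for scaling.

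Symbols, biotypes and coordinates came from GENCODE M21 (mm10), matched by identifier for 42462 of 43346 genes. Scaling used edgeR 4.0.16 in R 4.3.3 (TMM factors 1.02 and 0.982), with DESeq2 1.42.0 size factors as an alternative, and a prior count of 2. Exact conditional binomial intervals at 95% cover counting error only, because each side is 1 library and variation between libraries does not enter them. No molecular tags are described, so PCR copies would count as separate reads. The ratio script was tested on simulated data. Sequence words and identities used biopython 1.88 and numpy 2.4.6. Genes named were all members, the 3 most abundant of each regulator list and 5 chosen regulators, and markers; 1 regulator is not reported here. The members, pairs and lists were chosen with earlier results of these data known. Alternatives covered scaling, filters, posterior means, FPKM, counts, transcript sets and leaving out each replicate.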

Additional observations from a re-analysis of the deposited data

How the results depend on the processing

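The count of 40 Rab genes at 10 TPM or more, the 25 paralog pairs beyond the spread and the 73 regulators at 10 TPM or more stayed within 1.5 times under each alternative run, leaving out each replicate included. The Rab share of protein-coding TPM was 0.535% of counts, and 0.610% without mitochondrial genes, an alternative chosen after seeing the data. The 4 genes past 0.25, 2 upward and 2 downward, became 0 upward and 9 downward with TPM and a pseudocount of 1. On that scale 3.14% of protein-coding genes passed upward and 17.4% downward. With no filter on low values 8 genes passed, 5 upward and 3 downward, against 13.5% and 12.4% of protein-coding genes. At a mean of 10 TPM or more 1 passed upward and 0 downward, against 6.17% and 2.6%. The median Rab ratio turned to -0.086 with TPM, a scale on which the median of all protein-coding genes was -0.12. The 7 genes with a leading transcript at 90% became 12 by percent of expected counts, a scale for which no share over all protein-coding genes is given here. Of the 27 pairs, the log2 ratio turned for Rab3c over Rab3b (1.02) and Rab34 over Rab36 (-0.65) by counts, for Rab1a over Rab1b (-0.52) by leading transcripts, and for Rab40b over Rab40c by protein-coding transcripts (0.13) and leading transcripts (1.10). Except where the construction shows it, the cause was not tested. No paired analysis was possible because the study has 1 group. Depth limits the genes under 1 TPM, with 4 to 171 counts. With 2 libraries each SD has 1 degree of freedom.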
